A study of Homo sapiens with 12 samples.

Results

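IFIT1, IFIT2, IFIT3 and IFIT5, together with IFITM1, IFITM2, IFITM3 and BST2, are 8 interferon-induced antiviral genes, and they were followed in RNA-seq of human head and neck squamous cell carcinoma (HNSCC) cells. They were taken by symbol from tables of 39368 gene symbols, and all 8 were found and passed the filter on low counts in every comparison. Both CAL27 and HSC3 are established lines of this cancer without HPV. All 12 libraries come from cells that carry the tet-MUC1shRNA vector, a doxycycline (DOX) inducible hairpin against MUC1 selected with puromycin. Vehicle cells received 0.1% DMSO and the others 500 ng/ml DOX, each for 7 days, with 3 libraries from triplicate cultures in each of the 4 groups (CAL27 vehicle, CAL27 DOX, HSC3 vehicle and HSC3 DOX). CAL27 cells were grown in DMEM and HSC3 cells in MEM, both with FBS. DOX-treated cells with a control hairpin are not analysed here, so a change with DOX cannot be divided into that of the hairpin and that of DOX itself. The comparisons ask how these genes stand in each line without DOX, how they change when MUC1 is silenced, and whether the change differs between the lines.

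Interferons act on cells through paired receptors, the kinases JAK1 and TYK2, and transcription factors that include STAT2 and IRF9. The interferon-stimulated response element (ISRE) and the gamma-activated site (GAS) are the DNA elements through which the pathway acts. IFIT proteins are built of tetratricopeptide repeats and act in the cytosol, where they bind foreign RNA ends and limit its translation. IFITM proteins sit in the plasma membrane or in endosomes and hinder fusion of virus with the cell, and BST2, also called tetherin, holds budding virus at the cell surface. Epithelial tumor cells can keep a raised set of interferon-stimulated genes (ISGs) with no virus present.

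The genes lie in 3 places of the genome (GRCh38, GENCODE v44). IFIT2, IFIT3, IFIT1 and IFIT5 follow each other on the + strand of chromosome 10, from 89283694 at the start of IFIT2 to 89421605 at the end of IFIT5. IFITM2 (303655 to 309397) and IFITM1 (310041 to 315272) lie on the + strand of chromosome 11 and IFITM3 (319676 to 329475) on its - strand. BST2 lies on the - strand of chromosome 19, from 17402939 to 17405630. The canonical transcripts have 5 exons for BST2 and 2 for each other member. No stretch of 75 bases in the IFIT or BST2 transcripts recurred in a transcript of another gene. By contrast, 52.2% of such stretches of IFITM1, 12.5% of IFITM3 and 7.08% of IFITM2 recurred, in part in each other (11.3% for IFITM1), so counts within the IFITM family are uncertain where reads could be split. Unnamed genes on the same strand overlap 21.1% of IFITM1 exon bases and 12.1% of those of IFIT2, and an unnamed antisense gene overlaps 16.3% of those of IFITM3.

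The stretches of promoter that hold ISRE letters are printed here, because interferon signalling acts on these genes through that element. RefSeq windows (GRCh38.p14, 250 bases before to 50 after the start) were found for 6 of the 8 members, not for IFIT2 and IFITM2. They were searched on both strands for ISRE as GAAA, any 2 bases and GAAA, and for GAS as TTCNNNGAA. Each sequence reads in the direction of its gene, and capitals mark ISRE matches. The stretches lie at chr10:89392487-89392549 (+, IFIT1), chr10:89327821-89327904 and chr10:89332415-89332507 (+, 2 starts of IFIT3), chr10:89414503-89414593 (+, IFIT5), chr11:313980-314063 (+, IFITM1), chr11:320866-320932 (-, IFITM3) and chr19:17405725-17405780 (-, BST2).
IFIT1: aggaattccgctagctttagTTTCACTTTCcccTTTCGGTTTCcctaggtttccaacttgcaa
IFIT3, first start: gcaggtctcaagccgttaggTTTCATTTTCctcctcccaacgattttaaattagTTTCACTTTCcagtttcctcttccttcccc
IFIT3, second start: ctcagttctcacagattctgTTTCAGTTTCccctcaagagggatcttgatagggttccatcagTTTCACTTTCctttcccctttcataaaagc
IFIT5: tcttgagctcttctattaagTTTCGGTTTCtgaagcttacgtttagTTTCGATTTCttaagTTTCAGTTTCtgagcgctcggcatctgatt
IFITM1: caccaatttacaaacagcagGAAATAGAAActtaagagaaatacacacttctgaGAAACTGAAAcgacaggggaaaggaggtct
IFITM3: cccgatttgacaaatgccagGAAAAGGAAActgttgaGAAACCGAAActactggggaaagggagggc
BST2: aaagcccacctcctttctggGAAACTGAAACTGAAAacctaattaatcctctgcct

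Each of the 7 windows held ISRE letters at 2 or 3 places, against 3.57% of all 35116 RefSeq windows with any. IFIT5 held 3 matches, and the 2 of BST2 overlap each other. GAS letters stood in the windows of IFITM1 (1 match) and BST2 (2 matches), in part over the ISRE letters, and in 7.66% of all windows. In the IFIT genes the ISRE letters read on the strand opposite to the gene, and in IFITM1, IFITM3 and BST2 on the strand of the gene.

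**Figure D1:**
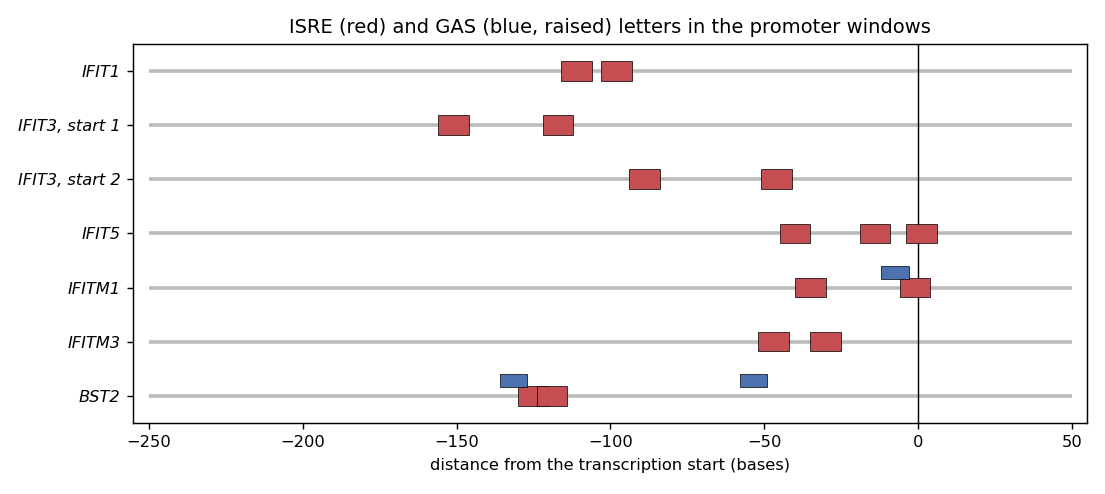
Map of the promoter windows of 6 genes (grey lines, 7 windows), with the distance from the transcription start in bases on the x axis, ISRE matches as red boxes and GAS matches as raised blue boxes. The ISRE boxes of BST2 and the first start of IFIT3 lie farther than 100 bases before the start, and a box of IFIT5 and of IFITM1 lies on the start itself.

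Library totals ran from 89730914 to 169065103 counts, deepest in the HSC3 DOX group (134231542 to 169065103). Counts per molecule, estimated from the share of low genes without a count, were 2.42 to 3.38 in the CAL27 libraries, 4.19 to 7.45 with vehicle in HSC3 cells and 8.98 to 17.3 with DOX in HSC3 cells, highest in HSC3 DOX replicate 1. On simulated data this estimate came out above the true value, so it serves to compare libraries and not as an absolute number. Levels are given as CPM, counts relative to the library total, scaled by TMM over the 12 libraries. MUC1 itself fell with DOX in both lines, with a log2 fold change of -4.21 in CAL27 cells (53.1 to 58.4 CPM with vehicle, 2.76 to 3.25 with DOX) and of -2.88 in HSC3 cells (1.64 to 1.97 CPM with vehicle, 0.132 to 0.31 with DOX). The squamous markers KRT5, KRT14, KRT6A, KRT17, TP63, CDH1 and DSP were present in both lines (summed 7044 to 7745 CPM with vehicle). With DOX, 6 of the 7 fell in CAL27 cells and 5 in HSC3 cells, against 21.8% and 15.4% of all genes tested. The 11 leukocyte, endothelial and fibroblast markers summed to 22.4 to 23.9 CPM in CAL27 vehicle, mostly CDH5, 14.3 to 17.6 CPM in CAL27 DOX, 1.44 to 1.66 CPM in HSC3 vehicle and 0.31 to 1.60 CPM in HSC3 DOX. In CAL27 cells CDH5, VWF, LUM and PDGFRB fell with DOX (4 of 6 tested, against 21.8% of all genes). PTPRC, LYZ, PECAM1 and DCN stayed at 10 counts or fewer in every CAL27 library. In HSC3 cells CD3E, LYZ and DCN were at 0 in all libraries. The part of other cell types in the results was not tested.

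Without DOX, CAL27 cells held more mRNA of 5 of the 8 genes than HSC3 cells. BST2 differed most, at 63.8, 60.6 and 71.7 CPM in CAL27 vehicle replicates 1 to 3 and at 1.47, 1.44 and 1.36 CPM in HSC3 vehicle replicates 1 to 3. The groups were far apart, and the 3 HSC3 libraries held 118 to 170 BST2 counts. IFIT1, which binds RNA caps that lack ribose methylation, stood at 155, 145 and 158 CPM in CAL27 cells and at 20.5, 16.4 and 13.5 CPM in HSC3 cells. IFIT2, which forms complexes with IFIT1 and IFIT3, stood at 124, 127 and 141 CPM and at 22.8, 19.7 and 19.5 CPM. IFIT3, which stabilizes IFIT1, stood at 251, 244 and 255 CPM and at 72.6, 61.1 and 59.2 CPM. For each of these IFIT genes every CAL27 library was above every HSC3 library. IFITM1, the member found mainly at the plasma membrane, was at 22.7, 23.4 and 29.3 CPM in CAL27 cells and at 4.48, 6.15 and 6.66 CPM in HSC3 cells, again with no overlap.

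The other 3 genes differed far less between the lines. IFITM3, the endosomal member and the most abundant of the 8, stood at 581, 544 and 565 CPM in CAL27 vehicle and at 591, 564 and 552 CPM in HSC3 vehicle, with overlapping groups. IFIT5, which binds uncapped RNA ends, stood at 101, 93.3 and 98.7 CPM and at 121, 108 and 117 CPM. IFITM2 ranged from 67.6 to 71.2 CPM in CAL27 vehicle and from 89.7 to 100.1 CPM in HSC3 vehicle. IFIT5 and IFITM2 were thus slightly higher in HSC3 cells, with no overlap between the groups. Without overlap, 40.7% of all genes tested were lower in HSC3 cells and 35.9% higher.

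In the fit of the 6 vehicle libraries, 5 members were lower in HSC3 cells, where 37.1% of the 19410 genes tested were lower, and 2 were higher, where 34.7% were. The difference of HSC3 from CAL27 on the log2 scale was -5.52 (SE 0.088, adjusted p = 3.27e-14) for BST2, a 45.9-fold lower level. It was -3.18 (SE 0.12, adjusted p = 2.43e-10) for IFIT1, -2.66 (SE 0.070, adjusted p = 2.44e-12) for IFIT2, -1.96 (SE 0.066, adjusted p = 2.27e-11) for IFIT3 and -2.13 (SE 0.14, adjusted p = 1.47e-08) for IFITM1. The higher pair were IFITM2 at 0.47 (SE 0.048, adjusted p = 1.38e-06) and IFIT5 at 0.24 (SE 0.049, adjusted p = 6.63e-04), and IFITM3 differed by 0.017 (95% interval -0.069 to 0.10, adjusted p = 0.715). The small differences depend on the scale: with library totals the median of all genes moved from -0.096 to -0.37, IFIT5 read -0.029 and IFITM3 -0.26 (adjusted p = 5.73e-05). Relative to the median of all genes, IFIT5 was at 0.34 and IFITM3 at 0.11 under either scaling. Subtracting the median removes a shift common to all genes, so both scalings had to give nearly the same values. Line, medium and the preparation of the libraries cannot be told apart in this comparison.

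Compared per transcript length, as RPKM (CPM divided by the kilobases of the canonical transcript), IFITM3 led in every group, at 922 ± 30.6 RPKM (SD, n = 3) in CAL27 vehicle and 931 ± 33.3 RPKM in HSC3 vehicle. In CAL27 vehicle it was followed by IFIT3 (105 ± 2.36 RPKM), IFITM2 (68.8 ± 1.84), BST2 (65.3 ± 5.71), IFIT2 (38.5 ± 2.79), IFITM1 (37.7 ± 5.42), IFIT1 (35.5 ± 1.61) and IFIT5 (24.2 ± 0.97). IFITM2 and BST2 did not differ beyond their spread, nor did IFIT2, IFITM1 and IFIT1. In HSC3 vehicle the order was IFITM2 (94.9 ± 5.26 RPKM), IFIT5 (28.6 ± 1.66), IFIT3 (26.9 ± 3.03), IFITM1 (8.63 ± 1.71), IFIT2 (6.09 ± 0.54), IFIT1 (3.91 ± 0.82) and BST2 (1.42 ± 0.059), with IFIT5 and IFIT3, and IFITM1 and IFIT2, within their spread. On this scale IFIT5 was last in CAL27 cells and ahead of 5 members in HSC3 cells. On the length of all exons merged, BST2 (59.4 RPKM) came ahead of IFIT3 (49.4) and IFITM2 (43.1) in CAL27 vehicle, and IFITM1 (15.1) came last, after IFIT5 (22.3). In HSC3 vehicle that length put IFIT5 (26.4) above IFIT3 (12.7), and IFIT2 (4.78) above IFITM1 (3.46).

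**Figure D2:**
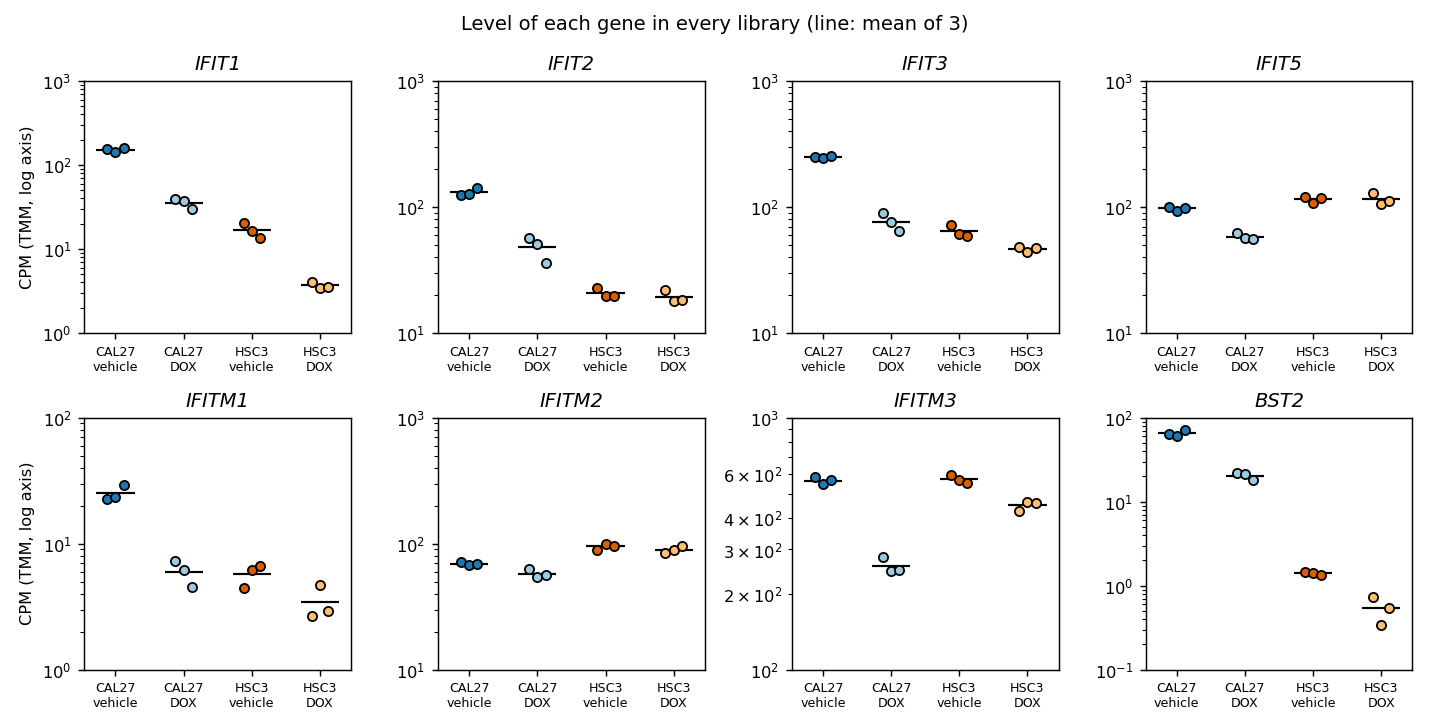
Level of each of the 8 genes in the 12 libraries, in CPM scaled by TMM on a log axis, with 1 point per library and a line at the mean of 3. All points of CAL27 DOX lie below those of CAL27 vehicle in the 8 panels, while IFIT2, IFIT5, IFITM1 and IFITM2 overlap between HSC3 vehicle and HSC3 DOX.

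With DOX, all 8 genes fell in CAL27 cells, and 5 of the 8 (IFIT1, IFIT3, IFITM1, IFITM3 and BST2) fell in HSC3 cells. Among all genes, 21.8% of 19239 tested were lower with DOX in CAL27 cells and 15.4% of 18021 in HSC3 cells. The groups did not overlap for 8 of 8 genes in CAL27 cells and for 4 of 8 in HSC3 cells (IFIT1, IFIT3, IFITM3 and BST2), where 25.9% and 22.5% of all genes were lower without overlap. With a 2-fold minimum 6 members were called lower in CAL27 cells, all but IFIT5 and IFITM2, against 5.11% of all genes, and 2 in HSC3 cells, IFIT1 and BST2, against 4.4%. In bulk RNA, fewer cells that express a gene and less RNA per cell cannot be told apart.

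Within the IFIT family, IFIT1 fell by a similar amount in both lines. In CAL27 cells it went from 155, 145 and 158 CPM to 39.1, 37.8 and 29.6 CPM in DOX libraries 4 to 6, as the columns are numbered. The HSC3 libraries went from 20.5, 16.4 and 13.5 CPM to 4.08, 3.47 and 3.57 CPM. Every DOX library was below every vehicle library of its line. The log2 fold change was -2.11 (SE 0.11, adjusted p = 1.01e-05) in CAL27 cells and -2.19 (SE 0.16, adjusted p = 3.81e-06) in HSC3 cells. HSC3 DOX libraries thus held 22.0% of the IFIT1 level of HSC3 vehicle.

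IFIT2 and IFIT3 fell in CAL27 cells, and in HSC3 cells IFIT3 fell by less and IFIT2 was not called. IFIT2 went from 124, 127 and 141 CPM to 57.2, 50.5 and 35.9 CPM in CAL27 cells. In HSC3 libraries IFIT2 went from 22.8, 19.7 and 19.5 CPM to 22.0, 17.8 and 18.4 CPM. The CAL27 groups stood apart and the HSC3 groups overlapped, with log2 fold changes of -1.45 (SE 0.20, adjusted p = 0.00434) and -0.095 (SE 0.11, 95% interval -0.34 to 0.15, adjusted p = 0.602). IFIT3 went from 251, 244 and 255 CPM to 89.4, 75.8 and 64.6 CPM in the CAL27 line, with a log2 fold change of -1.71 (SE 0.12, adjusted p = 1.38e-04). The HSC3 values of IFIT3 went from 72.6, 61.1 and 59.2 CPM to 48.5, 44.2 and 47.0 CPM, a log2 fold change of -0.47 (SE 0.090, adjusted p = 0.00238) with no overlap. LIPA, on the other strand, overlaps 1.5% of IFIT2 and 1.86% of IFIT3 exon bases, and if reads were counted without strand, its reads could not be told from theirs.

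IFIT5 fell in CAL27 cells, and no change was called in HSC3 cells. It went from 101, 93.3 and 98.7 CPM to 62.2, 57.2 and 55.5 CPM in CAL27 cells. Its HSC3 values were 121, 108 and 117 CPM with vehicle and 128.5, 107 and 111 CPM with DOX. The HSC3 groups overlapped, with a log2 fold change of -0.0064 (95% interval -0.18 to 0.17, adjusted p = 0.968) whose sign changes with the scaling, against -0.75 (SE 0.045, adjusted p = 4.39e-11) in CAL27 cells. The interval in HSC3 cells does not reach the CAL27 value.

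In CAL27 cells IFITM1 had the largest fall of the IFITM family and IFITM2 the smallest, and in HSC3 cells no change was called for IFITM2. IFITM1 went from 22.7, 23.4 and 29.3 CPM to 7.34, 6.21 and 4.50 CPM in the CAL27 line, with a log2 fold change of -2.08 (SE 0.21, adjusted p = 8.23e-04). Among HSC3 libraries it stood at 4.48, 6.15 and 6.66 CPM with vehicle and at 2.66, 4.73 and 2.93 CPM with DOX, so that DOX replicate 2 lay above vehicle replicate 1. The log2 fold change in HSC3 cells was -0.75 (SE 0.24, adjusted p = 0.0395). That call rests on single libraries, since the adjusted p was 0.131, 0.165 and 0.128 without vehicle replicate 2, vehicle replicate 3 and DOX replicate 3.

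IFITM3 fell in both lines, by more in CAL27 cells. It went from 581, 544 and 565 CPM to 280, 247 and 249 CPM in CAL27 cells. Its HSC3 values went from 591, 564 and 552 CPM to 428, 462 and 460 CPM. Neither pair of groups overlapped, and the log2 fold changes were -1.13 (SE 0.045, adjusted p = 9.78e-14) and -0.34 (SE 0.061, adjusted p = 0.0016). IFITM2 went from between 67.6 and 71.2 CPM to between 54.8 and 62.7 CPM in CAL27 cells, a fall of 0.26 on the log2 scale (SE 0.047, adjusted p = 1.02e-04). In HSC3 cells IFITM2 was at 89.7 to 100.1 CPM with vehicle and 85.1 to 95.6 CPM with DOX (log2 fold change -0.090, 95% interval -0.25 to 0.069, adjusted p = 0.419).

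BST2 went from 63.8, 60.6 and 71.7 CPM to 22.0, 21.2 and 17.9 CPM in the CAL27 line, with a log2 fold change of -1.69 (SE 0.082, adjusted p = 2.35e-08). In HSC3 cells, where it was scarce, it went from 1.47, 1.44 and 1.36 CPM to 0.728, 0.341 and 0.546 CPM, a log2 fold change of -1.40 (SE 0.34, adjusted p = 0.0103). The groups did not overlap in either line. The HSC3 DOX libraries held 46 to 108 BST2 counts at an estimated 8.98 to 17.3 counts per molecule. After division of each library by its counts per molecule, BST2 in HSC3 cells fell by 1.52 on the log2 scale (adjusted p = 0.00242). Again 5 of the 8 members fell in HSC3 cells, where 2978 of 13598 genes tested fell. Without HSC3 DOX replicate 1 the count of members was 5 as well, where 3601 of 18697 genes fell. Both are larger shares of all genes than the 15.4% of the main fit.

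The difference between the lines was tested as an interaction of line and DOX over the 12 libraries, where 8.25% of 20694 genes were called with a difference above 0, meaning a smaller fall or larger rise in HSC3 cells, and 12.3% with one below 0. Of the 8 members, 5 were called with a difference above 0 and none with one below. With a 2-fold minimum 3 were called (IFIT2, IFIT3 and IFITM1), against 2.19% of all genes. The difference was 1.36 (SE 0.19, adjusted p = 1.08e-04) for IFIT2, 1.24 (SE 0.14, adjusted p = 1.47e-05) for IFIT3 and 0.74 (SE 0.10, adjusted p = 1e-04) for IFIT5. It was 1.32 (SE 0.31, adjusted p = 0.00604) for IFITM1 and 0.79 (SE 0.080, adjusted p = 6.49e-06) for IFITM3. No difference was called for IFIT1 (-0.075, 95% interval -0.47 to 0.32, adjusted p = 0.853), BST2 (0.29, 95% interval -0.21 to 0.80, adjusted p = 0.451) or IFITM2 (0.17, 95% interval -0.024 to 0.37, adjusted p = 0.224). Without HSC3 DOX replicate 1, IFITM2 was called too (0.23, adjusted p = 0.03). MUC1 fell by less on the log2 scale in HSC3 cells (difference 1.36, SE 0.25, adjusted p = 0.00101), where it was scarce. The HSC3 DOX libraries held 16 to 46 MUC1 counts at an estimated 8.98 to 17.3 counts per molecule, which limits that value. Whether the fall of MUC1 bears on the difference of the members was not tested.

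**Figure D3:**
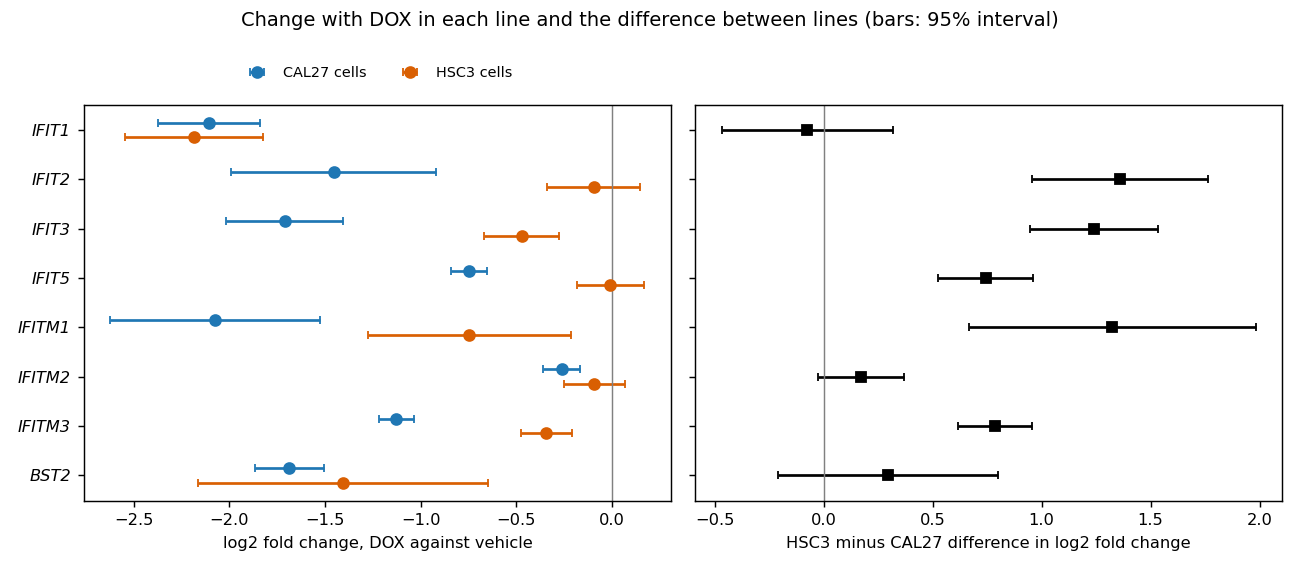
Log2 fold change of DOX against vehicle for each gene in CAL27 cells (blue) and HSC3 cells (orange), and at the right the HSC3 minus CAL27 difference, with bars for the 95% interval. IFIT1 sits near -2.1 in both lines with a difference whose interval covers 0, while IFIT2, IFIT3, IFIT5, IFITM1 and IFITM3 have intervals of the difference above 0.

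The ratio of 2 genes within a library does not depend on how libraries are scaled. Of the 9 pairs within the families, all 9 stood apart between vehicle and DOX in CAL27 cells. In HSC3 cells 6 stood apart and 3 overlapped (IFIT2 to IFIT5, IFITM1 to IFITM2 and IFITM1 to IFITM3). The share over other pairs of genes was not computed. In HSC3 cells the ratio of IFIT1 to IFIT2 counts was 0.693 to 0.9 with vehicle and 0.185 to 0.195 with DOX. In CAL27 cells it was 1.12 to 1.25 with vehicle and 0.683 to 0.826 with DOX. IFIT1 therefore fell relative to IFIT2 in both lines, with no overlap, and on the log2 scale the ratio changed by -2.07 in HSC3 cells and -0.64 in CAL27 cells. The ratio of IFIT3 to IFIT5 went from 2.48 to 2.62 with vehicle to 1.16 to 1.44 with DOX in CAL27 cells and from 0.505 to 0.601 to 0.378 to 0.424 in HSC3 cells. IFITM2 rose relative to IFITM3 in both lines, from 0.122 to 0.124 to 0.222 to 0.226 in CAL27 cells and from 0.152 to 0.178 to 0.193 to 0.208 in HSC3 cells. In an exact permutation test of 3 against 3 libraries the smallest two-sided p is 0.1, which is the value each of these 3 ratios had in either line.

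The make-up of the family shifted accordingly. Of the summed IFIT RPKM, IFIT1 made up 17.5% ± 0.32 (SD, n = 3) in CAL27 vehicle and 11.99% ± 0.57 in CAL27 DOX. Of the HSC3 sum it made up 5.93% ± 0.84 with vehicle and 1.58% ± 0.019 with DOX. The share of IFIT5 took the opposite course, from 11.9% ± 0.38 to 21.2% ± 2.15 in CAL27 cells and from 43.8% ± 2.36 to 52.3% ± 1.07 in HSC3 cells. The level of IFIT5 itself fell in CAL27 cells, and no change of it was called in HSC3 cells. IFIT3 was the largest share in CAL27 vehicle at 51.6% ± 0.58. All these shares and sums use the canonical length. On the length of all exons merged, IFIT3 (49.4 RPKM) stood nearer to IFIT1 (33.1) in CAL27 vehicle. The summed IFIT level was 203 ± 6.69 RPKM in CAL27 vehicle, 68.9 ± 10.3 in CAL27 DOX, 65.5 ± 5.49 in HSC3 vehicle and 54.7 ± 4.44 in HSC3 DOX, so that CAL27 cells with DOX and HSC3 cells with vehicle did not differ beyond their spread. IFITM3 held most of the summed IFITM level, from 86.4% ± 0.24 in CAL27 DOX to 89.98% ± 0.87 in HSC3 vehicle.

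**Figure D4:**
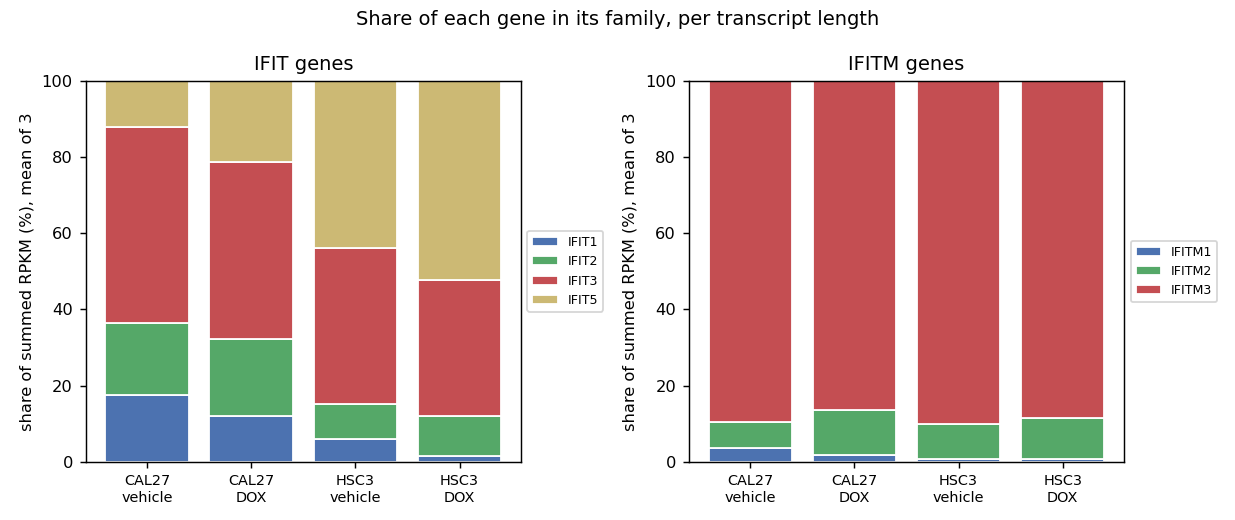
Mean share of each gene in the summed RPKM of its family (bars stacked to 100%, 3 libraries per group), IFIT genes at the left and IFITM genes at the right. The share of IFIT5 goes from 11.9% with vehicle to 21.2% with DOX in CAL27 cells and from 43.8% to 52.3% in HSC3 cells. IFITM3 stays the main IFITM gene.

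The rest of the interferon pathway was read from chosen lists. Of 30 other ISGs, 30 fell in CAL27 cells and 21 fell in HSC3 cells, against 21.8% and 15.4% of all genes tested. This list was chosen with earlier results of these data known, and it was not tested against these shares. Its median log2 fold change was -1.67 (CAL27) and -1.31 (HSC3), against -0.0052 and -0.0097 over all genes tested. IFI44L fell by 4.13 (CAL27) and 3.64 (HSC3) on the log2 scale, and MX1, a dynamin-like antiviral GTPase, by 2.85 and 1.92. The 9 that did not pass in HSC3 cells were ISG15 (0.083), IFI35 (-0.35), IFIH1 (0.077), RIGI (-0.45), RSAD2 (-2.93), USP18 (-0.22), EPSTI1 (0.12), UBE2L6 (0.12) and SP110 (0.019). RSAD2 had at most 58 counts in an HSC3 library. ISG15, a ubiquitin-like modifier, was at 8.60 ± 2.41 CPM with vehicle and 9.15 ± 1.97 CPM with DOX in HSC3 cells, while it fell by 1.39 in CAL27 cells. The line difference was called above 0 for 21 of these 30 genes, against 8.25% of all genes, and below 0 for 4 (OASL, IFI44, HERC5 and CMPK2), against 12.3%. The HSC3 values of OASL and CMPK2 rest on DOX libraries with at most 14 and 2 counts.

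**Figure D5:**
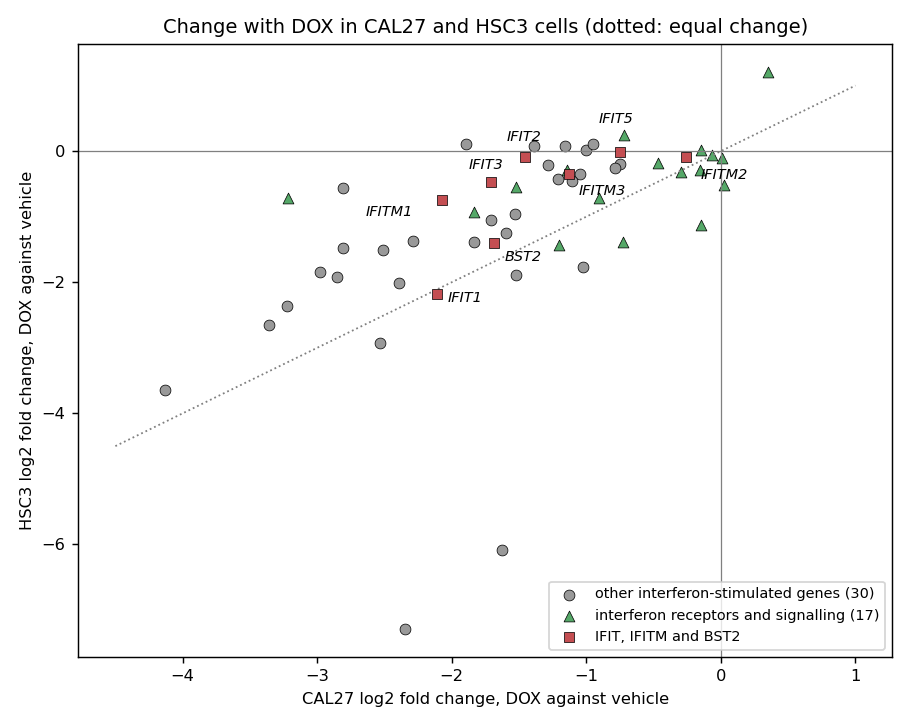
Log2 fold change with DOX in CAL27 cells (x axis) against HSC3 cells (y axis) for the 8 genes (red squares), 30 other ISGs (grey circles) and 17 receptor and signalling genes (green triangles), with a dotted line of equal change. IFIT1 lies on the dotted line and the 7 others above it, IFITM2 and BST2 by differences whose intervals cover 0; the 2 lowest circles, CMPK2 and OASL, had almost no counts in HSC3 DOX libraries.

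Among 17 interferon receptor and signalling genes, 11 fell and 1 rose in CAL27 cells, and 7 fell (4 without vehicle replicate 1) and 1 rose in HSC3 cells. Over all genes 21.8% and 15.4% fell, and 22.6% and 13% rose. The line difference was called above 0 for 3 of the 17 (STAT2, IRF1 and SOCS3), against 8.25% of all genes. It was called below 0 for 2 (IFNLR1 and JAK2), against 12.3%. With the CAL27 value first and the HSC3 value second, STAT2 fell by 1.14 (SE 0.038, adjusted p = 8.88e-15) and 0.29 (SE 0.077, adjusted p = 0.0175). Its line difference was 0.86 (adjusted p = 6.06e-06). IRF9, a DNA-binding partner of STAT2, had at most 30 counts in any library and is 1 of the 11 in CAL27 cells. IFNGR1, a chain of the interferon gamma receptor, fell by 1.2 and 1.44, while JAK1 was at -0.068 and -0.057, and IFNAR1, a chain of the type I receptor, at 0.0051 and -0.11, and neither passed the test in either line. SOCS3, a feedback inhibitor of JAK kinases, rose by 0.35 and 1.21. Of 8 interferon genes, IFNB1, IFNG and the IFNL genes were at 19 counts or fewer in every library, and IFNE, an epithelial type I interferon, fell by 0.96 in HSC3 cells (adjusted p = 0.00557) and was at 0.33 in CAL27 cells (adjusted p = 0.272).

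Of 10 genes whose proteins work with or on the members, 3 fell and 3 rose in CAL27 cells, and 3 fell and 1 rose in HSC3 cells. Over all genes 21.8% fell and 22.6% rose in the CAL27 fit, and 15.4% and 13% in the HSC3 fit. The list was not tested against these shares. With 1 HSC3 library left out, 5 fell without DOX replicate 1 and 1 without any of the other 5. CMTR1, which adds the cap methylation that keeps IFIT1 off host mRNA, fell by 0.32 in CAL27 cells (adjusted p = 3.04e-05) and was at 0.079 in HSC3 cells (adjusted p = 0.62). NEDD4, a ubiquitin ligase that acts on IFITM3, rose by 0.45 in both lines (adjusted p = 7.88e-09 and 8.31e-04). VAPA, a membrane protein bound by IFITM3, fell by 0.22 and 0.47. The remaining 3 family genes were scarce, with IFIT1B at 1.02 ± 0.023 CPM in CAL27 vehicle and 0.324 ± 0.12 CPM in CAL27 DOX, a log2 fold change of -1.66 (SE 0.26, adjusted p = 2.09e-05), and IFITM5 and IFITM10 at 0.264 CPM or less in every library.

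Genes around the members moved in both directions. Of 23 protein-coding genes that start within 100000 bases of a member, 21 were tested in CAL27 cells, of which 9 fell (2 in 1 fit over 12 libraries) and 3 rose, and 17 in HSC3 cells, of which 1 fell (SLC27A1, 0 without any 1 of 4 libraries) and 5 rose. The same shares over all genes apply here (21.8% and 22.6% for CAL27, 15.4% and 13% for HSC3). The neighbours' median log2 fold change was -0.037 and 0.0064. The largest falls in CAL27 cells were those of CCDC194 (-2.89), CH25H (-1.81), the family gene IFIT1B (-1.66), B4GALNT4 (-1.40) and NLRP6 (-1.09). These genes were scarce, each at a mean of 1.49 CPM or less in CAL27 vehicle. LIPA, a lysosomal lipase gene whose annotation runs antisense across IFIT2, IFIT3 and IFIT1, fell by 0.14 in CAL27 cells and rose by 0.38 in HSC3 cells. MVB12A, which starts 92 bases from BST2 on the other side, was at -0.090 and 0.20 (adjusted p = 0.328 and 0.275). PSMD13 near IFITM2 rose by 0.34 in CAL27 cells and was at 0.00037 in HSC3 cells.

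Likeness of pattern was measured as the root mean square (RMS) difference of log2 CPM, centred within each line, over the 12 libraries. Compared were 8598 genes whose mean in each line reached 3 on the log2 CPM scale. The lower it is, the more alike the patterns are. For IFIT1 the nearest genes were DDX60 (0.16) and WARS1 (0.18), against a median of 1.10 over all these genes. For IFIT2 they were TRANK1 (0.13) and KLHL24 (0.14), and for IFIT3 PARP14 (0.12) and TRANK1 (0.14). IFIT5 was nearest to CLIC4 (0.052) and PARP8 (0.058), and IFITM2 to GM2A (0.041) and DBI (0.049). IFITM3 was nearest to STAT2 (0.051) and PCDH7 (0.072), and IFITM1 to the basal keratins KRT15 (0.21) and KRT17 (0.27). BST2 was nearest to SAMD9L (0.18) and BCL11B (0.22). The levels of BST2, IFITM1 and IFIT1 in HSC3 cells are themselves under or about at that floor. Among the members, IFIT2 and IFIT3 were each other's nearest (0.18), IFIT5 and IFITM3 likewise (0.20), and IFIT1 and BST2 likewise (0.36). The median over the 8598 genes differs by member, so RMS values are not on 1 common scale. It was 0.59 for IFIT2, 0.67 for IFIT3, 0.33 for IFIT5 and 0.84 for BST2. In the IFITM family it was 0.86 for IFITM1, 0.20 for IFITM2 and 0.46 for IFITM3. The nearest member of IFITM2, IFIT5 (0.21), was no closer to it than that median.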

How the data were processed

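RNA was extracted with TRIzol and made into TruSeq Stranded mRNA libraries. The authors deposited 1 table of raw counts per gene symbol for each line. Their processing notes name FastQC 0.11.9, STAR 2.7.9a, Subread 2.0.1, featureCounts and GRCh38. The settings for strand, duplicates and multiply mapped reads are not given in the sources used here. The CAL27 DOX columns are numbered 4 to 6 and were mapped to their group with no replicate number. No 2 replicates held the same values (between 0.535% and 1.93% of genes had equal counts), which excludes copied columns only. That the libraries come from separate cultures rests on the paper's account of triplicates.

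Counts were tested in R 4.3.3 with edgeR 4.0.16 (TMM, filterByExpr with a minimum count of 10, robust quasi-likelihood fit, two-sided, adjustment by Benjamini-Hochberg for the whole set of tested genes). Calls need an adjusted p under 0.05, and standard errors and 95% intervals come from the same fit. Each line was fitted alone, the vehicle libraries together, and all 12 libraries for the interaction. The DOX and interaction fits were tested on simulated data, and the fit of the vehicle libraries was not. RPKM used the canonical GENCODE v44 transcript. Alternatives were DESeq2 1.42.0, other scalings, no filter, a 2-fold minimum, counts per molecule, a replicate block, 1 fit over 12 libraries and leaving out each library.

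The members and lists were chosen with earlier results of these data known. The text names all 8 members, genes of the lists, genes within 100000 bases and the 2 most alike genes per member. HSC3 replicate numbers did not pair (correlations of deviations -0.20, 0.35 and -0.34 over 9273 genes). Values of some listed genes are not reported here.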

Additional observations from a re-analysis of the deposited data

Results flagged for a closer look

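The change with DOX differed between HSC3 and CAL27 cells for 5 of the 8 genes, by the interaction term of the edgeR fit over 12 libraries. Over all genes, 8.25% were called with a difference above 0 and 12.3% with one below. The HSC3 minus CAL27 difference in log2 fold change was 1.36 for IFIT2, 1.24 for IFIT3, 0.74 for IFIT5, 1.32 for IFITM1 and 0.79 for IFITM3. In each case the 3 DOX libraries of CAL27 cells lay below all its vehicle libraries, which held in HSC3 cells for IFIT3 and IFITM3 but not for IFIT2, IFIT5 and IFITM1. Over all genes, 25.9% in CAL27 cells and 22.5% in HSC3 cells were lower without overlap. Counts per molecule were higher in HSC3 DOX libraries than in any other, and with counts divided by them the same number of members, 5, was called. In that setting 2002 of 16368 genes were called with a difference above 0, a larger share than in the main fit, and 2649 with one below.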

How the results depend on the processing

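The counts of members lower with DOX (8 in CAL27 and 5 in HSC3 cells), of members whose change differed between lines (5) and of members that differed without DOX (7) stayed within 1.5 times under every alternative except a 2-fold minimum, which left 2 in HSC3 cells and 3 for the line difference. Over the settings for single members, 445 kept direction and side of the threshold, 12 fell below it, 1 passed it and 14 turned sign. The turned values were IFIT5 in HSC3 cells at 0.0065 (DESeq2 size factors, and DESeq2) and up to 0.044 with 1 library left out (-0.086 to 0.044 over all settings), the IFIT1 line difference at -0.20 to 0.11 with 1 library left out (0.012 without CAL27 DOX library 4), IFIT5 without DOX at -0.029 with library totals, and IFITM3 without DOX at -0.26 (library totals), -0.0018 (no filter), -0.026 (counts per molecule) and -0.015 or -0.0033 with 1 library left out. With a 2-fold minimum the genes called in all were 1236 instead of 8554 in CAL27 cells, 1077 instead of 5124 in HSC3 cells, 1078 instead of 4255 for the line difference and 6739 instead of 13939 without DOX, and 1 fit over 12 libraries called 5083 in CAL27 cells. The share of higher calls without DOX was 48.3%, and 35.5% with library totals.

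For the lists, a 2-fold minimum left 5 of 11 signalling genes lower in CAL27 cells and 2 of 7 in HSC3 cells, 0 of 3 partners in each line, and 5 of 9 neighbours in CAL27 cells and 0 of 1 in HSC3 cells; 1 fit over 12 libraries left 2 neighbours in CAL27 cells. Leaving out 1 library gave 8 members in CAL27 cells, 4 to 5 members in HSC3 cells, 5 to 6 members for the line difference, 7 without DOX, and in HSC3 cells 4 to 9 signalling genes (4 without vehicle replicate 1), 1 to 5 partners (5 without DOX replicate 1) and 0 to 1 neighbours.

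HSC3 replicate numbers share only a number: vehicle 3 correlated best with DOX 1 (0.48). A replicate block in HSC3 cells called 5 members lower, as without it, 21 other ISGs, 7 signalling genes, 2 partners and 1 neighbour, and 5 members for the line difference. With that block 2523 of 18021 genes fell in HSC3 cells. For the line difference it called 1991 of 20694 genes above 0 and 2918 below. No paired analysis was possible in CAL27 cells because the DOX columns carry other numbers. BST2 had 46 to 108 counts in HSC3 DOX libraries, which limits its precision there.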
